A study of Mus musculus with 12 samples.

Results

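The genes described here are the cytochrome P450 enzymes of families 1 to 4 in the mouse. They were taken as every protein-coding gene of GENCODE M21 whose symbol is Cyp, a digit from 1 to 4 and a letter, leaving out the club cell gene Cyp2f2, which gave 80 genes among the 56608 gene identifiers of 2 count tables. Family 1 had 3 members, family 2 had 48, family 3 had 9 and family 4 had 20. All animals were C57BL/6 mice. Lung tumours and adjacent normal lung came from 3 mice aged 18 months, numbered 102, 217 and 224, each with a Med23 knockout in T cells (Med23 encodes a subunit of the Mediator complex of transcription). Both lung groups thus share that knockout, and no lung of a wild-type mouse was compared. Alveolar type 2 (AT2) cells, which make surfactant, were sorted by flow cytometry from mice aged 6 months, 3 of them wild type (176, 177 and 190) and 3 with the same T-cell knockout (175, 179 and 191). The labels do not name the Cre driver of the deletion.

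Cytochrome P450s are haem enzymes of the endoplasmic reticulum that insert an oxygen atom into their substrate, with electrons passed from NADPH by cytochrome P450 oxidoreductase. Members of families 1 to 3 are best known for oxidising drugs, pollutants and other foreign compounds, and some of them and most of family 4 act on fatty acids and their signalling derivatives. In the mouse lung they are known mainly from club cells, with some in AT2 and endothelial cells, and several are switched on by ligand-activated factors such as the aryl hydrocarbon receptor (AhR) and the nuclear receptors CAR and PXR.

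The 12 libraries held 65163100 to 77951014 counts each in lung and 15943084 to 18913242 in AT2 cells. Low lung counts pile up on multiples of 4 (707 to 906 genes at 4 counts and 332 to 457 at 3 counts per lung library, against 545 to 722 and 680 to 909 in AT2 libraries), so 1 lung count need not be 1 read, and lower bounds on lung folds are set against 12 counts over a group instead of 3. The AT2 libraries were rich in the AT2 marker Sftpc, surfactant protein C (means of 91182 CPM in wild type and 72384 CPM in knockout). CPM are counts scaled to a common library total. In these libraries the 10 fibroblast and smooth muscle markers summed to 0.823 to 2.29 CPM. The 10 macrophage markers summed to 13.9 to 32.7 CPM and the 10 club cell markers to 1308 to 1625 CPM. Among the latter, Scgb1a1, the club cell secretoglobin, was at 371 to 514 CPM. Whether club cell RNA added to the P450 levels of AT2 libraries was not tested. Tumour 217 lay farthest from its group (chi-square per degree of freedom 1164 and 867 against tumours 102 and 224, which were at 376 from each other), and wild-type 177 did so less in AT2 cells (93.97 and 73.1 against 45.9). The adjacent libraries were 480 to 808 apart, with 102 and 217 the farthest pair. Values without single libraries, or without both of mouse 217, are given where a result turns on them.

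The first comparison asked how the tumours differed from the lung around them. The summed level of P450 genes was lower in tumours. The CPM of all 80 members summed to 214, 248 and 174 in tumours 102, 217 and 224 and to 1543, 787 and 880 in the adjacent tissue of the same mice, so the groups did not overlap (212 ± 36.7 against 1070 ± 412, mean ± SD, n = 3). Counts were found for 55 members in the lung libraries, and 32 had enough to be tested. With edgeR's quasi-likelihood test and Benjamini-Hochberg adjustment over all genes, 3 of the 32 were higher in tumours (9.38%, against 2.86% of the 19995 genes tested) and 11 were lower (34.4%, against 7.18%), while 18 did not pass. The 3 that were higher are near-copies in 1 gene cluster, whose reads can be mistaken for one another. Their share therefore does not stand for 3 independent genes. In 15 members every tumour lay below every adjacent library (18.9% of all genes did), in 5 every tumour lay above (11.6%), and in 12 the groups overlapped. Within the mice, 16 members were lower in the tumour of all 3 animals (29.3% of all genes were), 6 were higher in all 3 (28.2%) and 10 were mixed. With the mouse as a block 3 rose and 10 fell (5.57% and 9.34% of all genes). The median log2 fold change was -0.97 for the 32 members and 0.04 for all genes tested.

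Those calls depended on which libraries were kept. Leaving out the tumour of mouse 102, 217 or 224 gave 1 and 1, 3 and 9, and 4 and 4 members higher and lower. Over all genes these fits called 1.21% and 2.57%, 2.17% and 6.57%, and 0.972% and 2.29% higher and lower, so calls were lost over all genes too. Leaving out the adjacent library of mouse 102, 217 or 224 gave 2 and 2, 2 and 5, and 2 and 3 (1% and 2.64%, 0.879% and 3.3%, and 0.659% and 2.22% of all genes). Without both libraries of mouse 217, 2 members were higher and 7 lower (0.726% and 3.4% of all genes). A smaller fit also has less power, and in simulated counts with all 6 lung libraries it recovered 69.2% of 16-fold changes and 8.99% of 4-fold changes. Only Cyp2c40 and Cyp2b10 passed in all 6 of these smaller fits. For each other gene below, the single libraries whose removal ended its call are given with it. These smaller fits do not pair the tissues by mouse. With all 6 libraries and the mouse as a block, 13 of the 14 members that passed did so again, all but Cyp4a14.

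**Figure D1:**
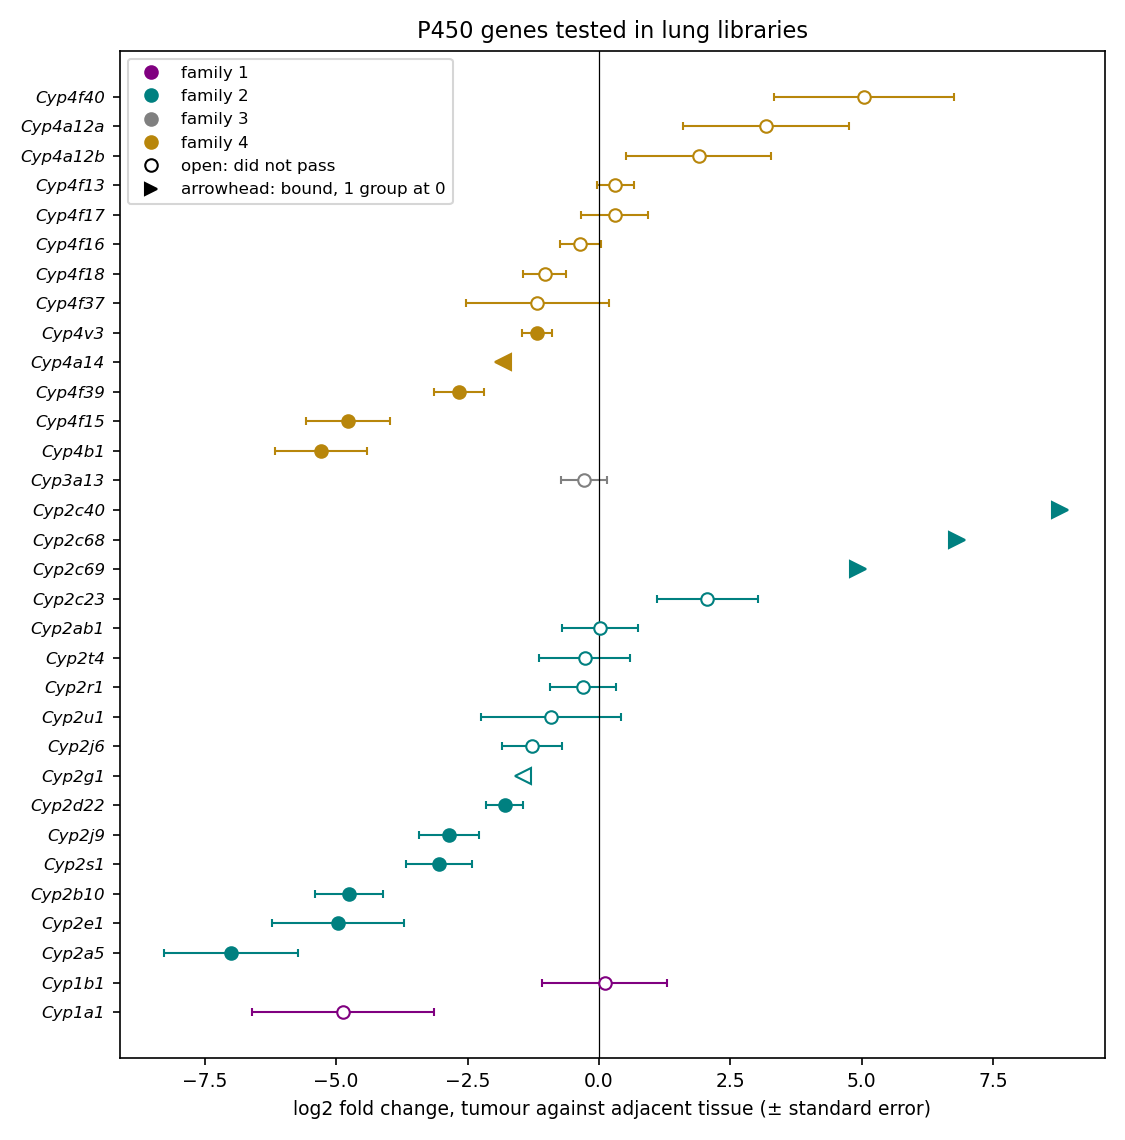
Log2 fold change (tumour against adjacent tissue, horizontal axis) of the 32 tested P450 genes, grouped by family, with bars of ± 1 standard error; filled symbols passed the test, and arrowheads mark lower bounds where 1 group had no counts. The 3 filled symbols on the right are Cyp2c40, Cyp2c68 and Cyp2c69, and the 11 on the left belong to families 2 and 4.

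The 3 members that rose were neighbours in 1 gene cluster. Cyp2c40, which oxidises arachidonic acid and is known from the gut, measured 10.02, 53.3 and 5.16 CPM in tumours 102, 217 and 224 and had 0 counts in all 3 adjacent libraries. It was at least 437-fold higher in tumours, and at least 145-fold without tumour 217 (adjusted p = 0.0142, and up to 0.0436 with 1 library left out). Tumour 217 held the highest level, and the 2 other tumours were also far above the adjacent tissue. Cyp2c68 was at 3.57, 12.7 and 1.22 CPM in the tumours and at 0 counts in adjacent lung, at least 112-fold higher and 45.9-fold without tumour 217 (adjusted p = 0.0169). It did not pass without tumour 102 (0.0521). Cyp2c69 was at 0.753, 3.66 and 0.335 CPM against 0 counts, at least 30.3-fold higher and 10.4-fold without tumour 217 (adjusted p = 0.0296). It lost its call without tumour 102 or any 1 of the adjacent libraries (adjusted p at most 0.0774). Cyp2c67, on the other side of Cyp2c68, had 135 counts in tumour 217 (2.15 CPM) and 0 in the 5 other lung libraries, too few libraries to be tested. None of these 4 genes had a count in any AT2 library.

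The order of the 3 tumours was the same for Cyp2c40, Cyp2c68 and Cyp2c69, with 217 above 102 above 224. Cyp2c68 had 35.6%, 23.9% and 23.7% of the counts of Cyp2c40 in tumours 102, 217 and 224, and Cyp2c69 had 7.52%, 6.87% and 6.50%. The 4 genes together made up 6.71%, 29.0% and 3.85% of the summed P450 level in those tumours. The AT2 gene Sftpc also had its highest value in tumour 217, at 182981 CPM against 38768 and 55003 CPM in tumours 102 and 224, and its part in the level of Cyp2c40 was not tested.

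These 4 genes stand in a row on the minus strand of chromosome 19 (GRCm38, 14 members in the cluster). Cyp2c67 runs from 39608842 to 39649051, Cyp2c68 from 39688834 to 39741054, Cyp2c40 from 39767071 to 39812814 and Cyp2c69 from 39842814 to 39886799. The 10 other members of the cluster were at or near 0. Among them, Cyp2c65 had 0, 4 and 17 counts in tumours 102, 217 and 224, and Cyp2c55, both known from the gut, had 9 counts in tumour 217. In adjacent tissue, Cyp2c37 had 12 counts and Cyp2c29 5 counts in mouse 224 only, and Cyp2c70 had 8 counts in mouse 102 only. Of the genes flanking the cluster described here, none rose with it. Noc3l (log2 change 0.42 ± 0.34, adjusted p = 0.538), Tbc1d12 (-0.08 ± 0.51, 0.959), Hells (0.55 ± 0.49, 0.574) and Pdlim1 (-1.07 ± 0.31, 0.0726) did not pass. Plce1, a phospholipase gene, fell (-2.88 ± 0.45, adjusted p = 0.0125).

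**Figure D2:**
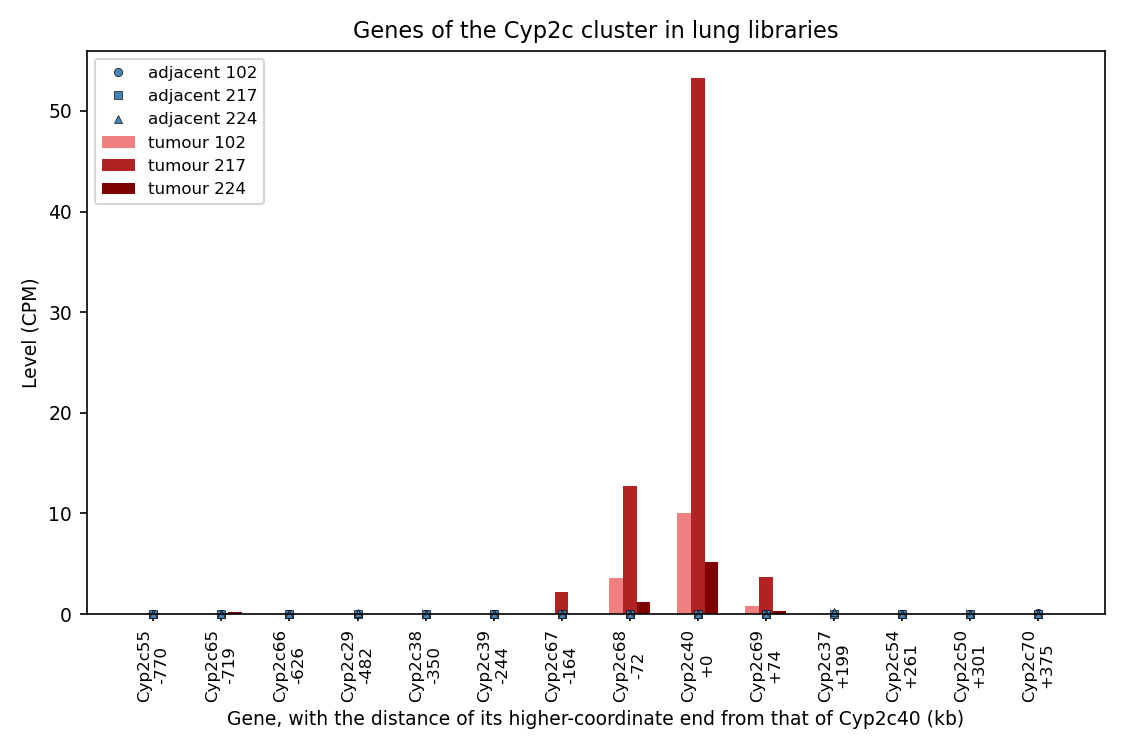
Level (CPM) of each of the 14 genes of the Cyp2c cluster in the 3 tumours (bars, 1 per mouse) and the 3 adjacent libraries (blue points), in order along the chromosome with the distance from Cyp2c40 in kb. Cyp2c40 stands above the baseline in all 3 tumours, with tumour 217 highest at 53.3 CPM. The bars of Cyp2c68 and Cyp2c69 are lower, and Cyp2c67 has a bar in tumour 217 only. Every adjacent point lies at or next to 0.

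Reads of these genes can be mistaken for one another. The transcript of Cyp2c40 was 97.6%, 98.03% and 97.8% identical to those of Cyp2c67, Cyp2c68 and Cyp2c69, and 65.5% to 76.7% identical to those of the 10 other members. Of the 75-base windows of the Cyp2c40 transcript, 57.1% also occur in another member. The share was 28.5% for Cyp2c68, 43.2% for Cyp2c69 and 36.0% for Cyp2c67. Which of the 4 genes a given read came from is therefore uncertain. The adjacent libraries had 0 counts for every one of them.

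The promoters of the 4 genes are shown because 3 of them rose in the tumours, and so did Hnf4a. This liver and gut factor acts on many P450 genes. Hnf4a was at 9.28, 8.20 and 7.27 CPM in tumours 102, 217 and 224 against 0.2505, 0.482 and 0.758 CPM in adjacent lung (log2 fold change 4.05 ± 0.58, adjusted p = 0.010, or 0.0570 without both libraries of mouse 217). Cyp2c67 had counts in tumour 217 only and was not tested. Reads shared among the 4 genes could also give them a common pattern, which was not tested. Each window runs 5′ to 3′ from 250 bases before to 50 bases after the gene's start (RefSeq, build GRCm38.p6), with the letters CAAAGTCCA, the element known as specific to HNF4A, in capitals.
Cyp2c40, chr19:39812765-39813064, minus strand: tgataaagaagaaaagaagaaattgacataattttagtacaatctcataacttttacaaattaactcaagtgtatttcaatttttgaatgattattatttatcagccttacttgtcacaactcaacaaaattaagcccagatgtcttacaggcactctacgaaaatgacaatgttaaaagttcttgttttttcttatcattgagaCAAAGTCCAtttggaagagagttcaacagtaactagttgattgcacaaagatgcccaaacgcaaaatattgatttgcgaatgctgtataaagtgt
Cyp2c67, chr19:39648993-39649292, minus strand: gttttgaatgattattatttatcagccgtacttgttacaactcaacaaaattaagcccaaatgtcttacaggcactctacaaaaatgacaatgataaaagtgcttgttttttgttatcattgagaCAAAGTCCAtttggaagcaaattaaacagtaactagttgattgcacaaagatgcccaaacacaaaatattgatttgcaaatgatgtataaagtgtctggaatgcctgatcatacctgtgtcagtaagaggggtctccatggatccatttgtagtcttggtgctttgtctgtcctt
Cyp2c68, chr19:39741052-39741351, minus strand: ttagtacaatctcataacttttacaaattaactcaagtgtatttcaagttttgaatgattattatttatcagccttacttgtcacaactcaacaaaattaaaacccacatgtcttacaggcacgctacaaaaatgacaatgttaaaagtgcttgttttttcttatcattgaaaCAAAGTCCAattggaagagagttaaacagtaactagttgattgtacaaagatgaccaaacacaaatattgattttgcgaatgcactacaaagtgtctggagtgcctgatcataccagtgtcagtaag
Cyp2c69, chr19:39886720-39887019, minus strand: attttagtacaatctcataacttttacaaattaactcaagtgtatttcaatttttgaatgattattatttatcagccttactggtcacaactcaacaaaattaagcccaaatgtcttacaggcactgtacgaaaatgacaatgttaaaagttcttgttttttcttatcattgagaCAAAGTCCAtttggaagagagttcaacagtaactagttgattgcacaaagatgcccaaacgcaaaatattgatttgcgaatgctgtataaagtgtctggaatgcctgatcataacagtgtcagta
The element begins 45, 125, 77 and 75 bases before the start of Cyp2c40, Cyp2c67, Cyp2c68 and Cyp2c69. The windows are 91.6% to 98.9% identical to one another over their aligned bases, so the 4 matches are not independent. Searched on both strands, CAAAGTCCA was found in 156 of 32817 windows of all genes (0.475%), or 0.555% of genes with a window, as some genes have several, and in 10 of the 65 members with a window. It was in all 3 members that rose, in 0 of the 9 that fell and have a window, and in 0 of the 12 that were tested and did not pass. The other 7 members that hold it were not tested, and besides Cyp2c67 and Cyp2c65 they are Cyp2c70, Cyp3a11, Cyp3a16, Cyp3a41a and Cyp3a41b, which had 0 counts in the tumours except for 4 counts of Cyp3a11 in tumour 102. The motif and the windows were looked at after the members' values were known. For comparison, the AhR core GCGTG was in 14 of the 65 members (35.2% of all genes with a window and 32.4% of windows), the nuclear receptor half-site AGGTCA in 18 (18.1% and 16.3%), the forkhead letters TGTTTAC in 9 (4.05% and 3.65%) and TATAAA in 29 (15.7% and 13.6%). None of these 4 is contained in CAAAGTCCA on either strand. A match describes the letters of a window and shows no binding.

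The members that fell included the most abundant P450 genes of the adjacent lung. Cyp4b1 (chromosome 4, 115624725 to 115647723), Cyp2b10 and Cyp2s1 made up 63.4% to 81.4% of the summed level there and took 3 of the top places per kb of exon, at 169 ± 101, 107 ± 58.0 and 36.2 ± 14.8 CPM per kb. Cyp4b1, which activates the lung toxin ipomeanol and hydroxylates fatty acids, was at 9.76, 17.5 and 2.03 CPM in tumours 102, 217 and 224, against 643, 257 and 241.4 CPM in adjacent lung. It fell 38.96-fold, or 64.6-fold without tumour 217 and 25.5-fold without adjacent 102 (log2 change -5.28 ± 0.88, adjusted p = 0.0145) and lost its call without tumour 102 (0.0610). Cyp2b10 (chromosome 7, 25897620 to 25926624), the classical target of the receptor CAR in liver, was at 12.7, 9.12 and 3.35 CPM against 366, 140 and 172 CPM. It fell 27.0-fold (-4.75 ± 0.65, adjusted p = 0.00920). Within each mouse the drop of Cyp2b10 was 28.9-fold, 15.3-fold and 51.4-fold in 102, 217 and 224, and that of Cyp4b1 65.9-fold, 14.7-fold and 119-fold, so both drops were smallest in mouse 217.

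Cyp2s1 (chromosome 7, 25802475 to 25816913), a P450 of epithelia outside the liver, was at 33.2, 6.78 and 24.9 CPM in tumours and 247, 102 and 187 CPM in adjacent lung. It fell 8.27-fold (log2 change -3.05 ± 0.63, adjusted p = 0.0263) and lost its call when either library of mouse 102 or 224 was left out (adjusted p at most 0.0798). Unlike Cyp4b1 and Cyp2b10, its drop was largest in mouse 217, at 15.0-fold against 7.44-fold and 7.53-fold in mice 102 and 224. Cyp2a5 (chromosome 7, 26835305 to 26843548), which hydroxylates coumarin and nicotine, was at 0.171, 0.509 and 0 CPM against 44.6, 11.7 and 30.7 CPM. Its fall of 128-fold, or 340-fold without tumour 217 (-7.00 ± 1.27, adjusted p = 0.0177) was the largest among the members that passed and had counts in both groups. It lost its call without tumour 102, adjacent 102 or adjacent 224 (adjusted p at most 0.0715), and it shares 18.0% of its 75-base windows with its near-copy Cyp2a4, which had 0 counts in tumours and 96, 8 and 0 in the adjacent tissue of 102, 217 and 224.

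**Figure D3:**
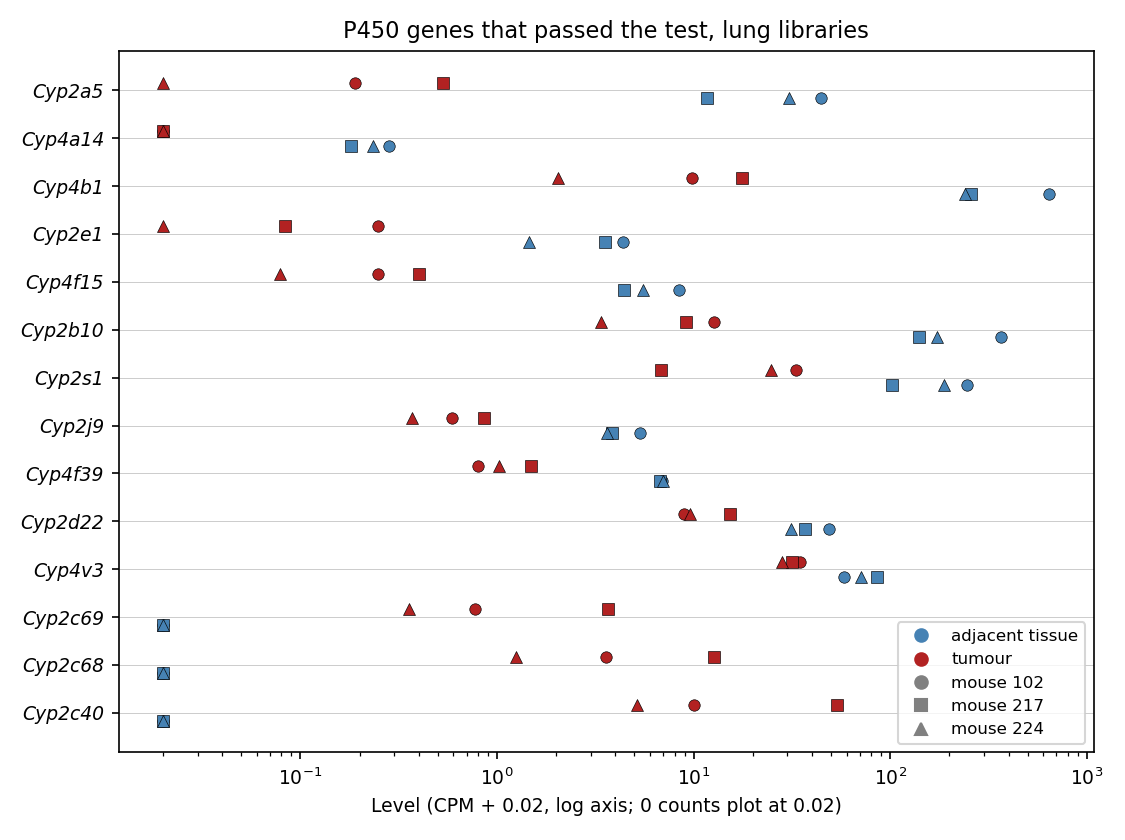
Level of each of the 14 P450 genes that passed the test in each lung library (horizontal log axis, CPM + 0.02; colour marks tissue and shape the mouse), sorted by fitted fold change. In the 11 genes at the top every tumour lies left of every adjacent library, and in the 3 Cyp2c genes at the bottom all adjacent libraries lie at 0 counts.

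Other family 2 members that fell were at lower levels. Cyp2d22, of the subfamily that oxidises many drugs in liver and brain, was at 8.91, 15.3 and 9.52 CPM in tumours and 49.0, 36.8 and 31.1 CPM in adjacent lung (log2 change -1.79 ± 0.36, adjusted p = 0.0235). Cyp2j9, of the subfamily that makes epoxides and hydroxides of arachidonic acid, was at 0.568, 0.843 and 0.350 CPM against 5.29, 3.83 and 3.60 CPM (-2.85 ± 0.57, adjusted p = 0.0242). Neither passed when tumour 102, tumour 224 or any 1 of the 3 adjacent libraries was left out (adjusted p up to 0.0863 for Cyp2d22 and 0.0834 for Cyp2j9). Cyp2e1, the P450 of ethanol and small solvents, was at 0.227, 0.064 and 0 CPM against 4.35, 3.53 and 1.44 CPM (-4.97 ± 1.25, adjusted p = 0.0460). It did not pass in any of the 6 fits that leave out 1 library (adjusted p up to 0.129). The groups did not overlap for any of these 3 genes.

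The 5 family 4 members that fell, Cyp4b1 among them, are enzymes that hydroxylate the far end of fatty acid chains. Cyp4f15, of a subfamily that inactivates leukotrienes, was at 0.227, 0.382 and 0.058 CPM in tumours and 8.44, 4.402 and 5.51 CPM in adjacent lung (27.5-fold lower and 42.8-fold without tumour 217, log2 fold change -4.77 ± 0.79, adjusted p = 0.0145). It did not pass without tumour 102 or without adjacent 102 (adjusted p up to 0.0558). Cyp4f39, which makes the very long hydroxylated fatty acids of skin ceramides, was at 0.781, 1.46 and 1.01 CPM against 6.91, 6.74 and 6.97 CPM (-2.66 ± 0.47, adjusted p = 0.0169). Its 3 adjacent libraries lay closer together, relative to their mean, than those of the 10 other members that fell, and it passed only with all 6 libraries or without tumour 217 (adjusted p up to 0.0630 in the 5 other fits). Cyp4v3, whose human counterpart is mutated in Bietti crystalline dystrophy of the retina, was at 34.5, 31.6 and 28.3 CPM against 58.1, 85.2 and 71.2 CPM. It fell by 1.18 ± 0.29 on the log2 scale (adjusted p = 0.0404), did not pass in any fit with 1 library left out (adjusted p up to 0.152), and overlaps the protein-coding gene Gm45753 on the same strand, whose reads it may share. Cyp4a14, a target of PPAR-alpha in liver, had 0 counts in tumours and 0.263, 0.161 and 0.213 CPM in adjacent lung, at least 3.57-fold lower (adjusted p = 0.0421). It did not pass in any fit with 1 library left out (adjusted p up to 0.145) or with the mouse as a block (0.129).

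Members next to the threshold were Cyp2g1, Cyp4f40 and Cyp1a1. Cyp2g1, known from the olfactory mucosa, had 0 counts in tumours and 0.163, 0.147 and 0.173 CPM in adjacent lung, at least 2.71-fold lower (adjusted p = 0.0505). Cyp4f40 was at 0.412, 4.01 and 2.73 CPM in tumours and 0, 0 and 0.213 CPM in adjacent lung, without overlap (log2 change 5.04 ± 1.71, adjusted p = 0.112). Cyp1a1, the classical AhR target that oxidises polycyclic hydrocarbons, had 0, 0.987 and 0 CPM in tumours 102, 217 and 224 and 9.94, 13.2 and 5.64 CPM in adjacent lung, again without overlap (-4.87 ± 1.73, adjusted p = 0.129). Tumour 217 was its only tumour library with counts, and without that library the adjusted p was 0.00630.

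The 2 other family 1 genes behaved otherwise. Cyp1b1, which oxidises oestrogens and polycyclic hydrocarbons and is known from stromal cells, was at 23.3, 8.34 and 0.977 CPM in tumours 102, 217 and 224, against 21.2, 1.04 and 8.05 CPM in adjacent lung. The ranges of the tissues overlapped almost in full (log2 change 0.11 ± 1.18, adjusted p = 0.976). Cyp1a2, the liver P450 of caffeine, had 4 counts, all in adjacent tissue of mouse 102.

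Of the other tested members, 3 more lay on 1 side in all libraries without passing. Cyp4f18, which oxidises leukotriene B in neutrophils, had means of 14.5 ± 2.01 CPM in tumours and 29.6 ± 14.2 CPM in adjacent lung (log2 change -1.03 ± 0.41, adjusted p = 0.172), and it overlaps the gene Zfp961 on the opposite strand. Cyp2j6 was at 2.07 to 9.72 against 10.6 to 15.0 CPM (-1.27 ± 0.57, adjusted p = 0.228). Cyp2c23, an epoxygenase of kidney that lies outside the cluster, was at 0.512 to 1.46 against 0.050 to 0.428 CPM (2.06 ± 0.96, adjusted p = 0.244). Cyp4f13 was higher in the tumour of every mouse by a small margin (16.2, 22.5 and 26.4 against 14.8, 14.8 and 22.8 CPM, 0.31 ± 0.34, adjusted p = 0.669). Cyp4a12a, a maker of the vasoconstrictor HETE of kidney, was at 4.25, 1.97 and 0 CPM in tumours and 0.150, 0.254 and 0.279 CPM in adjacent lung (adjusted p = 0.278, and 0.0465 without tumour 224), and its near-copy Cyp4a12b was at 3.62, 2.07 and 0.029 against 0.363, 0.120 and 1.05 CPM (adjusted p = 0.485). Among the rest, Cyp2r1, the vitamin D hydroxylase of liver (adjusted p = 0.838), Cyp3a13, the only family 3 gene tested (0.776), Cyp4f16 (0.673) and Cyp4f17 (0.844) overlapped between tissues, as did Cyp2ab1, Cyp2t4, Cyp2u1 and Cyp4f37 (0.690 to 0.993).

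Markers of several cell types moved with these genes. In bulk tissue, fewer cells of a type and less RNA per cell cannot be told apart. Of 10 club cell markers, 5 fell (6 with the mouse as a block, 3 without both libraries of mouse 217). The list summed to 1957 to 4382 CPM in tumours and 18194 to 38619 CPM in adjacent lung. Scgb1a1, the secretoglobin of club cells, was at 745 to 1852 against 14450.0 to 34193 CPM and made up most of that sum in adjacent lung. The 5 that did not pass went in both directions. They were Cyp2f2 (log2 change -1.41, adjusted p = 0.290), Hp (-0.78, 0.384), Gabrp (-0.14, 0.905), Muc5b (0.14, 0.948) and Aldh1a7 (0.65, 0.433). With the mouse as a block, Cyp2f2 alone among them passed, as lower (adjusted p = 0.0330). Of 10 ciliated cell markers, 8 fell, 10 with the block and 9 without both libraries of mouse 217 (20.5 to 62.2 against 935 to 1889 CPM). Of 10 endothelial markers, 8 fell, 10 with the block and 5 without both libraries of mouse 217 (1004 to 1178 against 3701 to 5203 CPM). AT2 markers went the other way, with 2 of 10 higher and none lower (6 higher with the mouse as a block, 0 without both libraries of mouse 217), and summed to 90968 to 232986 against 27659 to 60076 CPM. Fibroblast and smooth muscle markers had 2 of 10 lower, and 6 with the block. Of 8 AT1 markers 3 fell (641 to 2023 against 2023 to 2966 CPM, median log2 change -1.43), and of 10 lymphocyte markers 3 fell, 5 with the block (5.98 to 35.97 against 51.3 to 143 CPM, median -3.02). Without both libraries of mouse 217, 2 fell in each of these lists. None of 10 macrophage markers passed (1169 to 2487 against 737 to 8668 CPM). Of 10 hepatocyte and gut markers, 6 were tested and only Vil1, a microvillus protein, rose (5.16 to 8.24 against 0.990 to 1.87 CPM, adjusted p = 0.0265), though it did not pass in any fit with 1 library left out (adjusted p up to 0.102). The gut factor Cdx2 had 0 counts in all 12 libraries, and albumin was at 4.09 to 22.5 CPM in tumours and 0 to 17.1 CPM in adjacent lung. The part of these cell types in the P450 results was not tested.

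Among genes that work with P450s, regulators were called more often than redox partners and haem enzymes in the fit of all 6 libraries. Over all genes tested, 2.86% rose and 7.18% fell. Of 12 redox partners and haem enzymes, none rose, 1 fell and 11 did not pass (median log2 fold change 0.04). Por, the oxidoreductase itself, was at 197, 101 and 233 CPM in tumours and 213, 102 and 253 CPM in adjacent lung of mice 102, 217 and 224, nearly equal within each mouse (-0.09 ± 0.45, adjusted p = 0.939). The gene that fell was Pgrmc1, a haem-binding P450 partner, at 23.6, 34.0 and 12.9 against 195, 159 and 126 CPM (-2.77 ± 0.43, adjusted p = 0.0122, 0.0501 without tumour 102). Of 17 tested regulators, 4 rose, none fell and 13 did not pass (median -0.13). Without both libraries of mouse 217 none of the 4 passed (Hnf4a at 0.0570). That fit called 1 of 17 regulators and 1 of 12 redox partners and haem enzymes, both lower. Hnf4a passed in all 6 fits with 1 library left out. Cebpa and Foxa2, factors shared by liver and lung epithelium, were among the others of the 4. Cebpa was at 932, 1059 and 1243 against 152, 220 and 294 CPM (2.28 ± 0.38, adjusted p = 0.0145) and lost its call without tumour 224 or adjacent 217 (at most 0.0519). Foxa2 (adjusted p = 0.0214) lost its call without tumour 224 or any 1 of the adjacent libraries (at most 0.0817). Of the receptors that induce P450 genes, Ahr (adjusted p = 0.892), its partner Arnt (0.958), Nr1i2, which encodes PXR (0.170, and 0.0381 without both libraries of mouse 217), and Nr1i3, which encodes CAR (0.803), did not pass. CAR was at 0 to 0.493 CPM in tumours and 0.113 to 0.977 CPM in adjacent lung. PXR was at 0, 0.382 and 0 CPM in tumours 102, 217 and 224, against 3.57, 1.34 and 1.82 CPM in adjacent lung. Its log2 change was -4.14 ± 1.63, with every tumour below every adjacent library.

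Other enzymes of foreign compounds moved in both directions. Of 18 other oxidising and hydrolysing enzymes, 2 rose, 6 fell and 10 did not pass (median log2 fold change -1.71). Aldh1a1, a retinal dehydrogenase, was at 36.2, 56.2 and 26.7 against 1179, 446 and 479 CPM (-4.14 ± 0.56, adjusted p = 0.00898), and passed in all 6 fits with 1 library left out. Fmo1 and Fmo5, which are flavin monooxygenases, Aldh3a1 and Ces1f fell too, and each of them lost its call without 3 or more single libraries (adjusted p at most 0.124), and Ces1f also did with the mouse as a block (0.0823). Aox1, an aldehyde oxidase, rose from 52.3, 20.1 and 39.4 to 293, 170 and 185 CPM (2.54 ± 0.44, adjusted p = 0.0163, 0.0664 without adjacent 224), and Fmo4 rose as well (0.0313, at most 0.111 with 1 library left out). Of 13 conjugating enzymes, 8 were tested and only Sult1d1 changed, falling from 15.3, 1.78 and 4.06 to 0.071, 0 and 0 CPM (adjusted p = 0.0196, at most 0.0647 without tumour 224, adjacent 102 or adjacent 224). Of 13 tested P450 genes outside families 1 to 4, none rose, 4 fell and 9 did not pass (median -1.72). They were Ptgis, the prostacyclin synthase of vessel walls (4.83, 13.4 and 4.10 against 95.8, 61.3 and 60.3 CPM), the retinoic acid hydroxylase Cyp26b1 (3.34, 4.12 and 2.10 against 40.1, 17.4 and 23.6 CPM), and the sterol enzymes Cyp27a1 and Cyp51. Of these 4, only Cyp26b1 passed in all 6 fits with 1 library left out (adjusted p = 0.0114, at most 0.0446), while Ptgis did not pass without tumour 102 (0.0552) and the sterol enzymes passed only without tumour 217.

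In sorted AT2 cells 40 of the 80 members had a count, and a few genes held most of the signal. Members summed to 414, 486 and 401 CPM in wild-type 176, 177 and 190 and to 372, 391 and 390 CPM in knockout 175, 179 and 191. Per kb of exon, Cyp2b10 was highest (63.4 ± 4.94 CPM per kb in wild type and 51.2 ± 6.18 in knockout), followed by Cyp4v3 (40.1 ± 12.5 and 35.6 ± 0.846) and Cyp4b1 (10.3 ± 2.35 and 10.6 ± 0.591). Below them came Cyp2j6, Cyp3a13, Cyp4f13, Cyp4f17, Cyp4f16, Cyp2d22 and Cyp2r1 in both groups, at 7.07 to 1.67 in wild type and 5.52 to 2.22 in knockout. The ranges of Cyp2b10, Cyp4v3 and Cyp4b1 did not overlap one another in either group. In wild type the neighbours from Cyp4b1 to Cyp3a13 overlapped, as did those from Cyp4f13 to Cyp2d22, while Cyp3a13 (4.93 to 7.55) lay just above Cyp4f13 (3.99 to 4.76). Cyp2r1 lay below Cyp2d22 without overlap in both groups.

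The order per kb differed between lung and AT2 libraries, which were normalised separately, so the levels stand side by side with no test. Adjacent lung was led by Cyp4b1, Cyp2b10, Cyp2s1, Cyp4v3 (18.8 ± 3.57 CPM per kb), Cyp4f18 (15.96 ± 7.67) and Cyp2a5 (14.0 ± 7.97). The ranges of Cyp4b1 (107 to 285) and Cyp2b10 (66.1 to 173) overlapped, Cyp2s1 lay below both, and Cyp2s1, Cyp4v3, Cyp4f18 and Cyp2a5 each overlapped the next. Tumours were led by Cyp2c40 (11.2 ± 13.0), Cyp4v3 (8.26 ± 0.823), Cyp4f18 (7.81 ± 1.08) and Cyp4f16 (6.42 ± 1.25), whose ranges overlapped too. The place of Cyp2c40 rests on tumour 217 (26.2), since in tumours 102 and 224 it was at 4.92 and 2.53, below the 3 other genes. Cyp2s1, in the top 3 of adjacent lung, was at only 1.95 to 4.21 CPM in AT2 cells, and Cyp2e1 had 0 counts there. Cyp3a13, Cyp2c23, Cyp4v3 and Cyp2j6 had higher values in every AT2 library than in any lung library. In AT2 cells they were at 14.6 to 22.3, 1.93 to 2.87, 116 to 206 and 16.9 to 34.1 CPM. In lung they were at 2.39 to 3.96, 0.050 to 1.46, 28.3 to 85.2 and 2.07 to 15.0 CPM.

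**Figure D4:**
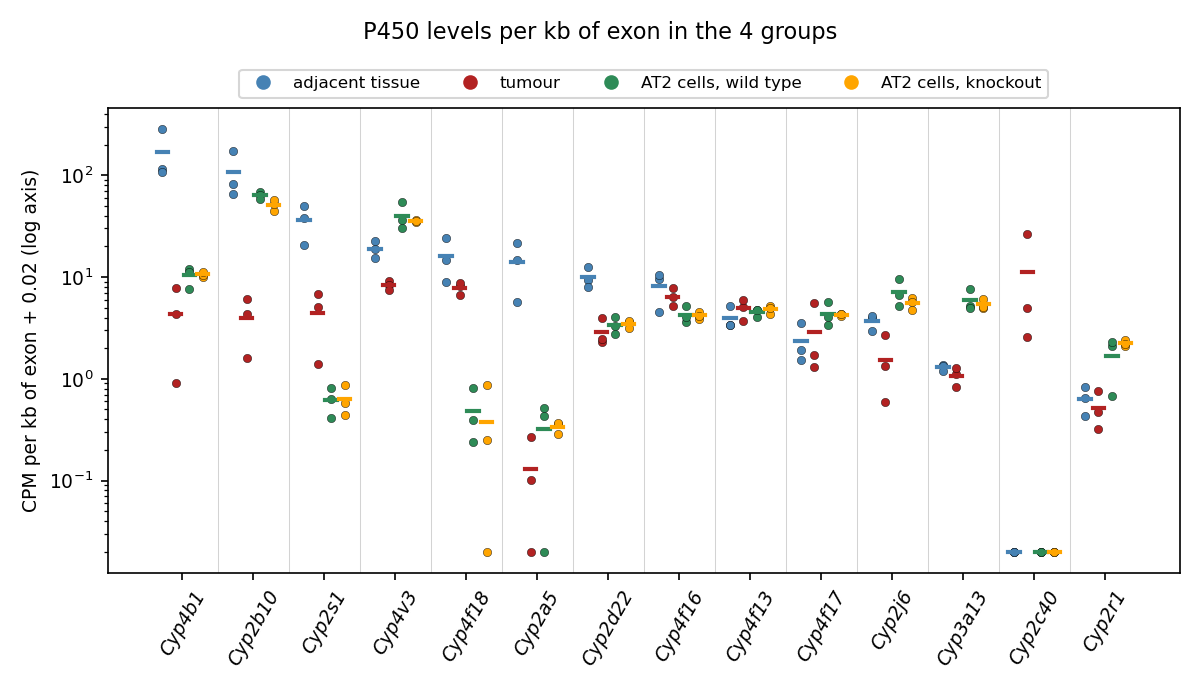
Level per kb of exon (CPM per kb + 0.02, vertical log axis) of 14 P450 genes in adjacent tissue, tumours, wild-type AT2 cells and knockout AT2 cells; points are libraries and bars are means of 3. Cyp2b10 and Cyp4v3 lead in both AT2 groups, Cyp4b1 leads in adjacent tissue, and Cyp2c40 has counts in tumours only.

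The second comparison asked whether AT2 cells of knockout mice differed from wild type at an age that the series' design places before tumours arise. The labels give the age and genotype of these mice. None of the 16 members tested passed with edgeR (0 of 14053 genes did, 0%) or with DESeq2. At an unadjusted p under 0.05 edgeR gave 1 member, Cyp1b1. It measured 9.18, 5.73 and 5.45 CPM in the libraries of wild-type mice 176, 177 and 190, and 4.62, 5.05 and 3.38 CPM in those of knockout mice 175, 179 and 191 (-0.64 ± 0.28 on the log2 scale, adjusted p = 0.984). Cyp2b10 measured 144, 135 and 123 CPM in wild type against 94.0, 110 and 120 CPM in knockout (-0.31 ± 0.15, adjusted p = 0.984). These were the 2 members of the 16 in which every knockout library lay below every wild-type library (4.11% of all genes did so), and in none did every knockout library lie above (4.19%). The other members overlapped between genotypes.

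Among them, Cyp4v3 measured 116, 206 and 137 CPM in wild type against 133, 139 and 134 CPM in knockout, and Cyp4b1 measured 27.3, 17.3 and 25.4 against 22.7, 23.8 and 25.3 CPM. Over the 16 members the log2 fold change ran from -0.64 to 0.41 with a median of -0.03 (-0.01 for all genes) and a median standard error of 0.22, and adjusted p ran from 0.984 to 0.998. In simulated AT2 counts the same fit recovered 92.6% of 4-fold changes. Changes smaller than 4-fold, such as those of these members, were not simulated. Wild-type 177 had the highest Cyp4v3 (206 CPM), Cyp2j6 (34.1 against 18.5 and 23.9 CPM) and Cyp3a13 (22.3 against 15.4 and 14.6 CPM) and the lowest Cyp4b1 and Cyp2r1 (1.38 against 4.41 and 4.82 CPM) of the wild-type libraries.

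Most members without a test were near or at 0. Cyp2c67 reached 2.15 CPM in tumour 217 and Cyp2a4 reached 1.20 CPM in adjacent 102. Of the 80, 20 had no count in any library, among them Cyp3a16, Cyp3a25, Cyp3a41a, Cyp3a41b, Cyp3a44 and Cyp3a59 of the liver-rich Cyp3a genes. Another 23 had some lung counts but were not tested there. Those with the most lung counts were Cyp2c67 (above), Cyp2a4 (96 counts in adjacent 102), Cyp2d26 (26, 3 and 18 counts in adjacent 102, 217 and 224 and 0, 7 and 3 in the tumours), Cyp3a11, a main liver P450 (44 counts in adjacent 102, 4 in adjacent 217 and 4 in tumour 102), Cyp2b19 (37, 6 and 9 counts in adjacent 102, 217 and 224 and 4 in tumour 224) and Cyp4a32 (37, 2 and 9 counts in adjacent lung and 0 in tumours). At this depth a gene with 0 counts in a lung group could still be present at up to 0.0595 CPM in tumours and 0.0522 CPM in adjacent lung (12 counts over the group, counting error only).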

How the data were processed

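Poly-A RNA was sequenced from 12 libraries in 4 groups of 3. The authors deposited raw counts, 1 table for the lung and 1 for the AT2 libraries. Libraries were made with a NEBNext Ultra RNA kit on poly-T captured RNA, per the labels' protocols. Per the submitters' processing notes the genome was GRCm38 (mm10), with Trimmomatic 0.39 and FastQC for reads, HISAT2 and StringTie 1.3.3b for alignment and assembly, and DESeq2 1.28.1. How alignments were counted, by strand or not and on which annotation, is not given in the sources used here. Genes that overlap on either strand may therefore share reads. Identifiers without a GENCODE M21 name carried 0.0388% of lung and 0.00383% of AT2 counts.

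Each table was normalised (TMM) and tested on its own with edgeR 4.0.16 under R 4.3.3 (quasi-likelihood test, its filter on low counts, Benjamini-Hochberg adjustment over all genes tested, threshold 0.05), with group as the only term, and the code was tested on simulated data. DESeq2 1.42.0, other scalings, no filter, the mouse as a block, each library left out, both libraries of mouse 217 left out and lung counts divided by 4 were alternatives. Levels are CPM after TMM, and per kb of exon (union of GENCODE M21 exons) where genes are compared. A fold against a group at 0 counts is a bound against 12 counts over the group in lung. Transcripts were aligned with Biopython 1.88.

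Tumour and adjacent libraries of 1 number came from the same mouse and deviated together (r across genes 0.358, 0.544 and 0.459 for 102, 217 and 224). Within groups, no library pair agreed within sampling noise (chi-square per degree of freedom 7.23 to 1164). The AT2 mice are separate animals by their numbers.

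Genes named are Cyp2c40, members that passed, the 10 highest per kb in each group and the 3 next to the threshold. Family 1 and the Cyp2c cluster are named too. Cyp4a12a, Cyp4a12b, the members named from the promoter search and other members named as without a test were added after their values were seen. The members, lists and tests were chosen with earlier results of these data known. Some genes counted in the lists and in the neighbourhood of the Cyp2c cluster are not reported here by name.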

Additional observations from a re-analysis of the deposited data

How the results depend on the processing

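The 3 higher and 11 lower P450 genes became 1 to 4 and 1 to 9 with 1 lung library left out. They became 2 and 7 without both libraries of mouse 217, 3 and 12 with library totals, 3 and 8 without the filter, and 4 and 14 with DESeq2. With lung counts divided by 4, a setting chosen after seeing the data, they became 2 and 11. With the mouse as a replicate block they were 3 and 10, since Cyp4a14 was lost and no other call of a member changed. No called gene changed direction. Over all genes 2007 passed in the fit reported, 3702 with DESeq2 and 598 to 1854 with 1 library left out. Scaling by library totals shifted the all-gene median log2 change by -0.22, and 17.6% of calls were then higher instead of 28.5%.

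Calls lost were Cyp2e1, Cyp4a14 and Cyp4v3 without the filter (adjusted p = 0.0589, 0.0921 and 0.0555) and Cyp2c69, Cyp2e1, Cyp2j9, Cyp4a14, Cyp4f39 and Cyp4v3 without both libraries of mouse 217 (0.0523 to 0.184). With counts divided by 4, Cyp2c69 and Cyp4a14 had too few counts to be tested. Calls gained were Cyp1a1 (adjusted p = 0.00630 without tumour 217, 0.0261 without both libraries of mouse 217, 0.0496 with counts divided by 4), Cyp2g1 (0.0448 with library totals, 0.0481 with DESeq2), Cyp4f40 (0.00151 with DESeq2), Cyp4a12a (0.0465 without tumour 224), and, with DESeq2, Cyp2a4 and Cyp4a32, which were under the filter of the fit reported. Fold changes that changed sign belonged to genes that did not pass. In lung, Cyp1b1 was at -0.15 with library totals, -0.32 without both libraries of mouse 217 and -1.10 to 1.33 with 1 library left out, and Cyp4f17 at -0.63 to 0.74. In AT2 cells, Cyp4f16 was at 0.030 and Cyp4f17 at 0.018 with library totals. With 1 AT2 library left out the ranges were -0.52 to 0.59 for Cyp2a5, -0.073 to 0.21 for Cyp2d22, -0.29 to 0.27 for Cyp2s1, -0.25 to 0.082 for Cyp3a13, -0.14 to 0.16 for Cyp4b1, -0.14 to 0.14 for Cyp4f16, -0.20 to 0.21 for Cyp4f17, -2.02 to 0.28 for Cyp4f18 and -0.34 to 0.10 for Cyp4v3. The cause was not tested. No AT2 member passed in any setting. No paired analysis was possible because the AT2 groups share no mouse number.

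Fits with 5 libraries have less power than those with 6. The lung fit recovered few 4-fold changes in simulated counts, and members under the filter were not tested.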
